A study of Mus musculus with 16 samples.

Results

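The genes described here make or regulate bile acids in the mouse liver. They were chosen by name for their role, with earlier results of these data known, and are 10 of the 24970 genes in the table. They comprise 6 enzymes of bile acid synthesis (Cyp7a1, Cyp8b1, Cyp27a1, Cyp7b1, Akr1d1 and Baat), the receptor pair Fgfr4 and Klb, and the nuclear receptors Nr1h4 and Nr0b2. All 10 were found in the table and all passed the filter on low counts, with 66 to 21740 counts per library.

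Polyadenylated liver RNA was sequenced from 16 mice in 4 groups of 4. Humanized mice, labelled PXR-CAR-CYP3A4/3A7, received TCPOBOP or vehicle, as did wild-type C57BL/6 Ntac mice. TCPOBOP, a synthetic agonist of mouse CAR, was given at 3 mg/kg in 2 administrations 24 h apart over 48 h, and the vehicle was 2% DMSO in corn oil. CAR and PXR are nuclear receptors that switch on drug-metabolising genes. The title of the series names effects of TCPOBOP in humanized mice that are off target. The comparisons therefore ask how the genes differed with TCPOBOP in each strain, whether those differences were unequal, and how the strains differed under each treatment. The labels do not state age, time of day, feeding, how the humanized alleles were made, or whether the strains were littermates.

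Hepatocytes convert cholesterol into bile acids by a classical route, which Cyp7a1 opens, and by an alternative route, which Cyp27a1 opens. Bile acids bind the receptor FXR, the product of Nr1h4, which induces the repressor SHP, the product of Nr0b2. In the ileum FXR induces the hormone Fgf15, which reaches the liver, binds Fgfr4 with its co-receptor Klb, and lowers Cyp7a1.

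Libraries held 14019983 to 16755802 counts in humanized TCPOBOP livers, 12612610 to 16904182 in humanized vehicle livers, 30228724 to 37998473 in wild-type TCPOBOP livers and 11827994 to 19483951 in wild-type vehicle livers, so the deepest libraries were all of 1 group. The mouse CAR gene Nr1i3 stood at 2.21, 2.79, 5.02 and 3.79 CPM in humanized TCPOBOP livers, 2.70, 1.63, 1.96 and 2.50 CPM in humanized vehicle livers, 53.5, 57.9, 46.2 and 51.6 CPM in wild-type TCPOBOP livers and 107, 93.4, 106 and 94.6 CPM in wild-type vehicle livers. CPM is a count scaled to the library total by TMM (trimmed mean of M values). The mouse PXR gene Nr1i2 was also lower in humanized than in wild-type liver, by -2.69 ± 0.20 under TCPOBOP and -2.85 ± 0.20 under vehicle on the log2 scale. Cyp2b10, the classical CAR target, rose in both strains, with log2 changes of 2.59 ± 0.42 in humanized liver (adjusted p = 0.00434) and 6.05 ± 0.49 in wild-type liver (adjusted p = 2.44e-07). It was lower in humanized than in wild-type liver, by -4.93 ± 0.46 under TCPOBOP (adjusted p = 1.12e-06) and -1.47 ± 0.41 under vehicle (adjusted p = 0.0253). A pair of libraries stood apart from their own groups. The mean correlation with the rest of the group was 0.929 for replicate 1 of the humanized TCPOBOP group, against 0.949 to 0.956 for its other members. It was 0.921 for replicate 2 of the wild-type vehicle group, against 0.955 to 0.960. Results that rest on either library are given with and without it.

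In humanized liver TCPOBOP changed 0 of the 10 genes by edgeR, against 2.52% of all 12913 genes tested (1.32% higher and 1.19% lower, a split that turned to 72 higher and 215 lower genes with library totals alone, without TMM). There, 4 of the 10 had an unadjusted p under 0.05 by edgeR, and DESeq2 called 1, Cyp7a1. In wild-type liver 4 of the 10 genes changed. Akr1d1 rose 3.35-fold, while Klb fell 3.75-fold, Cyp7b1 fell 3.00-fold and Cyp8b1 fell 2.99-fold. Cyp7a1, Cyp27a1, Baat, Fgfr4, Nr0b2 and Nr1h4 did not pass the test. Over all genes tested, 13.1% passed in wild-type liver, 8.1% higher and 4.99% lower (1280 and 478 genes without TMM). The TCPOBOP and vehicle groups did not overlap for 0 of the 10 genes in humanized liver, against 9.95% of all genes tested, and for 3 of the 10 in wild-type liver, against 20.9%. The test throughout is edgeR's quasi-likelihood F test on all 16 libraries, with p-values adjusted by Benjamini-Hochberg over all genes tested and a threshold of 0.05. Errors of log2 changes are standard errors, errors of CPM are SDs, and n is 4 mice in every group.

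The stretches around the transcription starts of Akr1d1, Klb and Nr0b2 are shown because Akr1d1 and Klb moved in opposite directions with TCPOBOP in wild-type liver and Klb and Nr0b2 differed between the strains under vehicle. They are RefSeq sequence of build GRCm38.p6 on the plus strand, from 250 bases before to 50 bases after the start that the RefSeq promoter table uses. For Klb and Nr0b2 that is the start of the transcript counted. For Akr1d1 it lies 195 bases downstream of the start of the counted transcript (37529978), so most of the stretch shown lies within the gene. Capitals mark matches, on either strand, to the nuclear receptor half-site AGGTCA (which reads TGACCT on the other strand) or to the E-box CACGTG. Positions are chr6:37529923-37530222 for Akr1d1, chr5:65348161-65348460 for Klb and chr4:133553126-133553425 for Nr0b2.
Akr1d1: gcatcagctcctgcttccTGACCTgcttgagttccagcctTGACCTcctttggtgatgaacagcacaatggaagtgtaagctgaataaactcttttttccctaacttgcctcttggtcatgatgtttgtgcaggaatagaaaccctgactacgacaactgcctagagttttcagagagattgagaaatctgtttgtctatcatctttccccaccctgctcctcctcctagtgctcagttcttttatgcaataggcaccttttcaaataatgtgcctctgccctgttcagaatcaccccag
Klb: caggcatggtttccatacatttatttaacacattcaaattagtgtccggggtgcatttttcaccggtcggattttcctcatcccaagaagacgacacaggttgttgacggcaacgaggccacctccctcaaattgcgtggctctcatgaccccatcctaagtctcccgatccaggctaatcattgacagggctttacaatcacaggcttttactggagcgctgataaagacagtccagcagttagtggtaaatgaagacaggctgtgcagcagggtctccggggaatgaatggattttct
Nr0b2: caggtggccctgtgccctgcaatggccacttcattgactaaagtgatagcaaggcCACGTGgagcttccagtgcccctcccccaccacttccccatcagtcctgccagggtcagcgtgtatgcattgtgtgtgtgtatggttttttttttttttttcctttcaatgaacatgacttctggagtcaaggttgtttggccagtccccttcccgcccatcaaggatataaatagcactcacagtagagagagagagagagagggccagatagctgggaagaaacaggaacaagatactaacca

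Akr1d1 had 2 half-sites, at 37 and 15 bases before the start of the counted transcript (232 and 210 before the table's start). Nr0b2 had 1 E-box at 195 bases before its start, while Klb had no match. A promoter was given for 7 of the 10 genes, and its start differed from that of the counted transcript for Akr1d1, for Cyp27a1 (387 bases downstream) and for Nr1h4 (26987 bases downstream). Among these 7, AGGTCA was in 2 (Akr1d1 and Nr1h4) and CACGTG in 1, against 4335 and 1957 (7.24%) of 27025 promoters of the same length. Longer arrangements were also searched, on both strands. They were TCAAGGTCA (0.407% of promoters), the direct repeats of the half-site known as DR1 (0.0444%) and DR4 (0.0111%), its inverted repeat IR1 (0.0111%) and the D-box TTATGTAA (0.955%), and none was in the 7 promoters. The first 4 contain the half-site. These matches describe letters in a short window only.

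**Figure D1:**
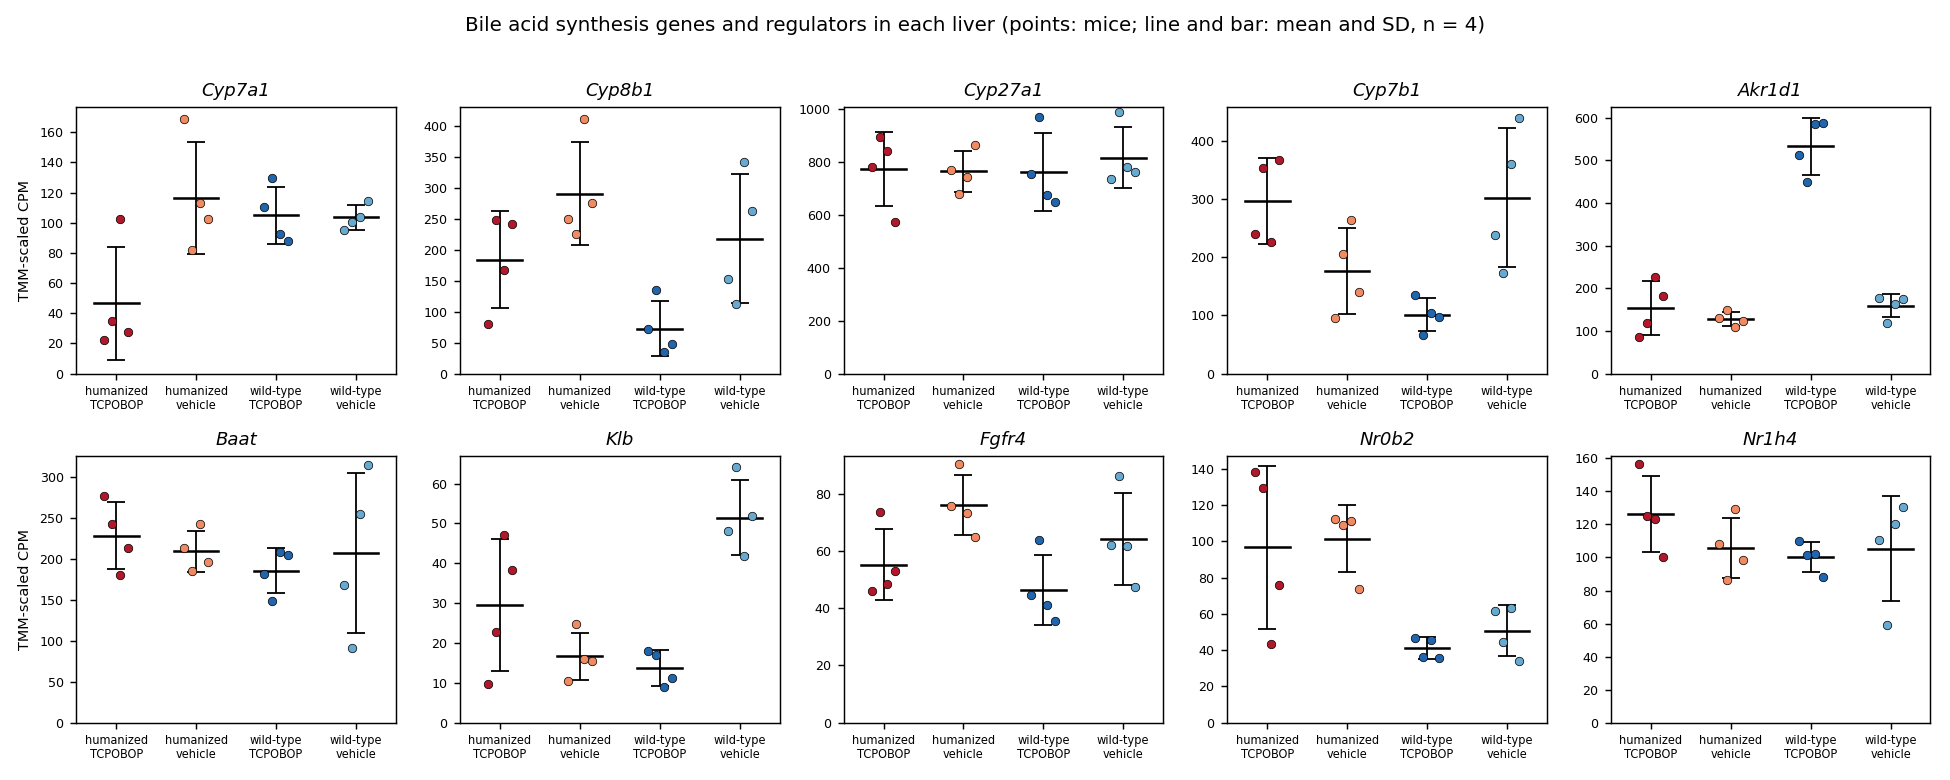
Level of each of the 10 genes in every liver, in TMM-scaled CPM, by group (points are mice, lines and bars are mean and SD, n = 4). Akr1d1 stands at 449 to 587 CPM in the 4 wild-type TCPOBOP livers and at no more than 228 CPM in any other liver, and Klb is at 41.9 CPM or more in all 4 wild-type vehicle livers.

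Cyp7a1, the cholesterol hydroxylase that sets the rate of the classical route (NM_007824, mm10 chr4:6265612-6275632), had 22, 35.2, 102 and 27.3 CPM in humanized TCPOBOP livers, against 169, 82.2, 113 and 102 CPM in humanized vehicle livers. In wild-type mice it had 110.2, 129.6, 92.4 and 87.9 CPM in TCPOBOP livers, against 95.4, 100.3, 104 and 115 CPM in vehicle livers. Of the humanized TCPOBOP livers 3 lay below every humanized vehicle liver, and replicate 3 lay within the vehicle range. The wild-type groups overlapped throughout. The log2 difference was -1.32 ± 0.36 in humanized liver (adjusted p = 0.0632) and 0.02 ± 0.35 in wild-type liver (adjusted p = 0.983, 95% interval -0.72 to 0.76). Without replicate 3 of the humanized TCPOBOP group the humanized difference was -2.05 with an adjusted p of 0.000906, and DESeq2 on all libraries gave -1.27 with an adjusted p of 0.0173. The difference between the strains' TCPOBOP effects, humanized minus wild-type, was -1.34 ± 0.50 (adjusted p = 0.12), and -2.07 (adjusted p = 0.000975) without that liver. Among mice given TCPOBOP, Cyp7a1 was lower in humanized than in wild-type liver by a log2 difference of -1.17 ± 0.36 (adjusted p = 0.0255). That call was lost in 4 of the 16 fits that left out 1 library each: without replicate 1, 2 or 4 of the humanized TCPOBOP group (adjusted p = 0.0738, 0.0821 and 0.0598) and without replicate 2 of the wild-type TCPOBOP group (0.0658). Without both libraries that stood apart it was -0.90 (adjusted p = 0.0596). Cyp7a1 had the largest spread of any of the 10 genes in any group, an SD of 80.2% of the mean in humanized TCPOBOP liver, and its smallest was 7.92% in wild-type vehicle liver.

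Cyp8b1, the sterol hydroxylase needed for cholic acid (NM_010012, chr9:121914356-121916305), had 80.9, 249, 167 and 241 CPM in humanized TCPOBOP livers, against 249.5, 226, 412 and 275 CPM in humanized vehicle livers. Its level was 72.4, 135, 35.6 and 48.4 CPM in wild-type TCPOBOP livers, against 153, 113, 342 and 263 CPM in wild-type vehicle livers. In the wild type, 3 of 4 TCPOBOP livers lay below every vehicle liver, and the lowest vehicle liver was replicate 2, which stood apart. The log2 difference was -0.66 ± 0.41 in humanized liver (adjusted p = 0.439, 95% interval -1.53 to 0.22), and the fall in wild-type liver was -1.58 ± 0.42 (adjusted p = 0.0176). The wild-type call was lost without replicate 3 of the vehicle group (-1.27, adjusted p = 0.0717), without replicate 3 of the TCPOBOP group (-1.35, 0.0671) and without replicate 4 of the TCPOBOP group (-1.42, 0.0716). The difference between the strains' effects, 0.92 ± 0.59, did not pass (adjusted p = 0.395). Without both libraries that stood apart, an alternative chosen after seeing the data, that difference was 1.41 (adjusted p = 0.0539). The wild-type fall was then -1.8 (adjusted p = 0.00173).

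Cyp27a1, the mitochondrial hydroxylase that opens the alternative route (NM_024264, chr1:74713148-74737897), was the steadiest of the enzymes between groups. It averaged 774 ± 141 CPM in humanized TCPOBOP, 765 ± 77.4 CPM in humanized vehicle, 764 ± 147 CPM in wild-type TCPOBOP and 817 ± 115 CPM in wild-type vehicle livers. Its highest group mean was 1.07 times its lowest. The log2 differences with TCPOBOP were 0.02 in humanized liver (95% interval -0.37 to 0.40) and -0.10 in wild-type liver (-0.48 to 0.29), and neither passed.

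Cyp7b1, the hydroxylase that acts on oxysterols next in that route (NM_007825, chr3:18071944-18243890), had 239.8, 353, 226 and 368 CPM in humanized TCPOBOP livers, against 94.7, 206, 265 and 140.2 CPM in humanized vehicle livers. In the wild type it had 135, 66.1, 104 and 97.6 CPM in TCPOBOP livers, against 239, 172, 359 and 439 CPM in vehicle livers. All 4 wild-type TCPOBOP livers lay below all 4 wild-type vehicle livers, while the humanized groups overlapped. The humanized log2 difference was 0.75 ± 0.32, which did not pass (adjusted p = 0.232). The fall in wild-type liver was -1.59 ± 0.33 (adjusted p = 0.00293). The effects of TCPOBOP differed between the strains by 2.34 ± 0.46 (adjusted p = 0.00441), and this call was kept in every alternative tried. Under TCPOBOP, Cyp7b1 was 2.94-fold higher in humanized than in wild-type liver (adjusted p = 0.00247, 4 of 4 livers above all wild-type livers).

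Akr1d1, the reductase that saturates the sterol ring in bile acid synthesis and also acts on steroid hormones (NM_145364, chr6:37529978-37574921), had 85.9, 119, 228 and 183 CPM in humanized TCPOBOP livers, against 129.8, 149.7, 109 and 124 CPM in humanized vehicle livers. It had 512, 449, 585 and 587 CPM in wild-type TCPOBOP livers, against 178, 119.7, 164 and 175 CPM in wild-type vehicle livers. The wild-type TCPOBOP livers were above every other liver of the study, and the remaining 3 groups overlapped one another. The humanized log2 difference of 0.27 ± 0.24 did not pass (adjusted p = 0.615, 95% interval -0.24 to 0.77), and the wild-type rise was 1.74 ± 0.25 (adjusted p = 9.14e-05). The effects differed between the strains by -1.48 ± 0.34 log2 units, with an adjusted p of 0.0124. The wild-type call and the call of the difference were kept in every alternative tried. Under TCPOBOP the gene was 3.46-fold lower in humanized than in wild-type liver (adjusted p = 5.57e-05).

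Baat, which joins bile acids to taurine or glycine (NM_007519, chr4:49489416-49507915), averaged 228 ± 41.0 CPM in humanized TCPOBOP, 209 ± 25.1 CPM in humanized vehicle, 185 ± 27.3 CPM in wild-type TCPOBOP and 207 ± 97.7 CPM in wild-type vehicle livers. The wide spread of the last group ran from 91.1 CPM in replicate 2, the library that stood apart, to 314 CPM in replicate 4. No comparison of Baat passed the test.

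Klb, the co-receptor for Fgf15 (NM_031180, chr5:65348411-65386957), had 9.75, 22.7, 47.1 and 38.4 CPM in humanized TCPOBOP livers, against 10.5, 24.7, 15.98 and 15.5 CPM in humanized vehicle livers. It had 17.9, 17.0, 8.84 and 11.2 CPM in wild-type TCPOBOP livers, against 48.1, 64.1, 41.9 and 51.7 CPM in wild-type vehicle livers. The wild-type groups did not overlap. Both the wild-type TCPOBOP and the humanized vehicle group lay wholly below the wild-type vehicle group. In humanized liver the log2 difference was 0.83 ± 0.37 (adjusted p = 0.244). It passed without replicate 1 of the humanized TCPOBOP group, 1 of the libraries that stood apart (1.14, adjusted p = 0.0317). The fall in wild-type liver was -1.91 ± 0.37 (adjusted p = 0.00168). The strains' effects differed by 2.74 ± 0.52 (adjusted p = 0.00332), the largest such difference among the 10 genes, and the call was kept in every alternative tried.

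Fgfr4, the receptor itself (NM_008011, chr13:55152818-55168759), had 46.1, 73.7, 48.6 and 53.0 CPM in humanized TCPOBOP livers, against 75.9, 90.4, 73.4 and 64.9 CPM in humanized vehicle livers. In the wild type it had 44.7, 63.7, 41.2 and 35.5 CPM in TCPOBOP livers, against 62.2, 86.2, 61.8 and 47.3 CPM in vehicle livers. The ranges overlapped in both strains, with 3 of 4 TCPOBOP livers below all vehicle livers in each. The log2 differences were -0.46 ± 0.22 in humanized liver (adjusted p = 0.272) and -0.48 ± 0.22 in wild-type liver (adjusted p = 0.174), neither past the threshold. The effects differed by 0.01 between the strains, with a 95% interval of -0.63 to 0.65. Fgf15 itself had 0 counts in all 16 livers.

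Nr0b2, the repressor SHP (NM_011850, chr4:133553376-133556686), had 138, 129, 43.6 and 75.9 CPM in humanized TCPOBOP livers, against 112, 109, 111 and 73.9 CPM in humanized vehicle livers. It had 46.9, 36.4, 45.5 and 35.6 CPM in wild-type TCPOBOP livers, against 61.3, 44.4, 63.3 and 33.8 CPM in wild-type vehicle livers. Within each strain the treatment groups overlapped. The log2 differences with TCPOBOP were -0.07 (95% interval -0.68 to 0.54) in humanized liver and -0.30 (-0.91 to 0.31) in wild-type liver. Neither passed, with adjusted p-values of 0.935 and 0.588.

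Nr1h4, which encodes FXR (its representative transcript NM_001163504 spans chr10:89454234-89533645), averaged 126 ± 23.1 CPM in humanized TCPOBOP, 106 ± 18.2 CPM in humanized vehicle, 100.3 ± 8.92 CPM in wild-type TCPOBOP and 105 ± 31.8 CPM in wild-type vehicle livers. It passed in no comparison. Its log2 differences with TCPOBOP were 0.26 (95% interval -0.19 to 0.71) in humanized and -0.07 (-0.52 to 0.38) in wild-type liver.

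**Figure D2:**
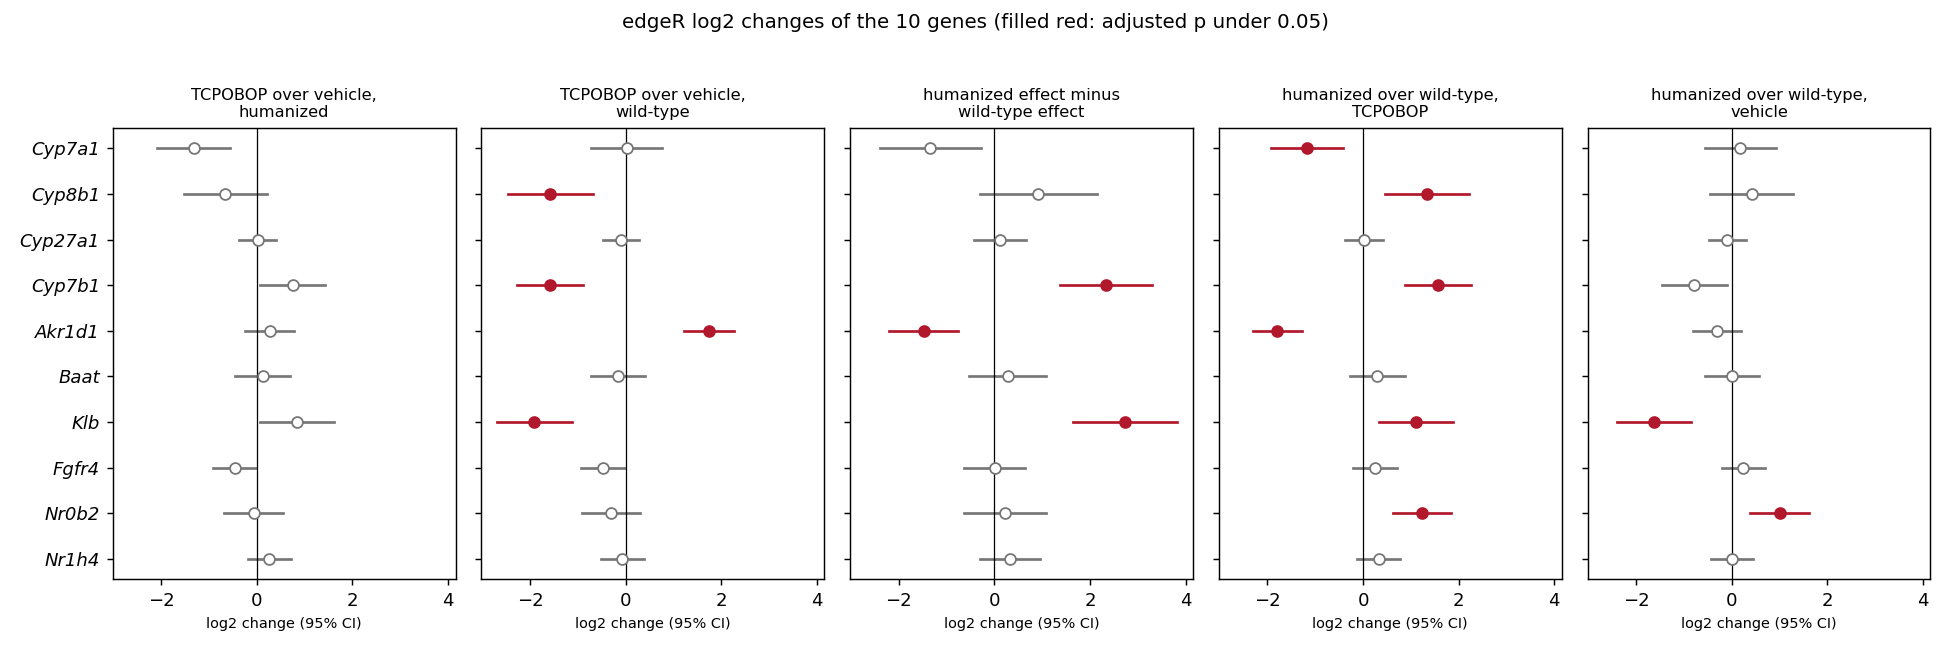
Log2 change of each of the 10 genes in the 5 comparisons (points are estimates, bars are 95% intervals, filled points passed the adjusted p of 0.05). The humanized TCPOBOP estimates run from -1.32 for Cyp7a1 to 0.83 for Klb with none past the threshold, while in wild-type liver Akr1d1 lies at 1.74 and Klb at -1.91.

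The difference between the strains' TCPOBOP effects, tested as an interaction, passed for 3 of the 10 genes: Cyp7b1, Klb and Akr1d1. Over all genes tested, 7.46% passed that test, 3.48% with a positive and 3.98% with a negative value (295 and 928 genes without TMM). For Cyp7b1 and Klb the value was positive because the wild-type change was a fall and the humanized estimate lay above 0. For Akr1d1 it was negative because the wild-type rise was not matched in humanized liver.

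Under vehicle, Klb and Nr0b2 differed between the strains, 2 of the 10 genes, against 16.1% of all genes tested (7.11% higher and 8.95% lower in humanized liver, which turned to 1160 higher and 757 lower genes without TMM). The strains did not overlap for those same 2 genes, against 26.4% of all genes tested. Klb averaged 16.7 ± 5.90 CPM in humanized vehicle livers and 51.5 ± 9.37 CPM in wild-type vehicle livers, a log2 difference of -1.63 ± 0.37 (adjusted p = 0.0121). Nr0b2 averaged 102 ± 18.5 CPM in humanized vehicle livers and 50.7 ± 14.1 CPM in wild-type vehicle livers, a difference of 1.00 ± 0.29 (adjusted p = 0.0296), and all 4 humanized livers lay above all 4 wild-type livers. The Nr0b2 call was lost without replicate 1, 2 or 3 of the humanized vehicle group (adjusted p = 0.0802, 0.0533 and 0.0755) and without replicate 4 of the wild-type vehicle group (0.076), and the Klb call was not lost in any such fit. Cyp7b1, at -0.78 ± 0.32, did not pass (adjusted p = 0.101), but did without replicate 2 of the wild-type vehicle group (-0.98, adjusted p = 0.0414). The other 7 genes did not pass, at 0.17 for Cyp7a1, 0.42 for Cyp8b1, -0.31 for Akr1d1, 0.24 for Fgfr4, -0.10 for Cyp27a1, 0.01 for Baat and 0.00 for Nr1h4. The sign of the last 3 depended on the setting, and Cyp7a1 stood at -0.06 without replicate 1 of the humanized vehicle group. This comparison shares the humanized vehicle livers with the humanized TCPOBOP comparison and the wild-type vehicle livers with the wild-type one.

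Under TCPOBOP, 6 of the 10 genes differed between the strains, 4 higher and 2 lower in humanized liver, against 24.6% of all genes tested (11.8% higher and 12.8% lower, or 919 and 2209 genes without TMM). The strains did not overlap for 2 of the 10, Cyp7b1 and Akr1d1, against 27.4% of all genes tested. Cyp8b1 (1.34 ± 0.42, adjusted p = 0.0278), Cyp7b1, Klb (1.11 ± 0.37, adjusted p = 0.034) and Nr0b2 (1.23 ± 0.29, adjusted p = 0.00558) were higher, and Cyp7a1 and Akr1d1 were lower. The Cyp8b1 call was lost in 5 of the 16 fits that left out 1 library, without replicate 2 or 4 of the humanized group (adjusted p = 0.0772 and 0.0567) or replicate 1, 3 or 4 of the wild-type group (0.0573, 0.0865 and 0.0895). The Klb call was lost in 4, without replicate 3 or 4 of the humanized group (0.111 and 0.0735) or of the wild-type group (0.104 and 0.0975). The calls of Cyp7b1, Akr1d1 and Nr0b2 were kept in all 16. Without both libraries that stood apart, Cyp8b1 was at 1.61 (adjusted p = 0.00338) and Klb at 1.43 (0.00126). Cyp7a1, at -0.9, did not pass there (0.0596). The other 4 genes did not pass, at 0.02 for Cyp27a1, whose sign depended on the setting, 0.30 for Baat, 0.26 for Fgfr4 and 0.33 for Nr1h4.

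Per kilobase of transcript, which allows genes to be set beside each other, Cyp27a1 had the highest level of the 10 in every group and its range did not overlap that of the next gene in any of them. It stood at 409 ± 74.4 CPM per kilobase in humanized TCPOBOP, 404 ± 40.9 in humanized vehicle, 404 ± 77.5 in wild-type TCPOBOP and 432 ± 61.0 in wild-type vehicle livers. Klb was last in every group, at 8.33 ± 4.69 CPM per kilobase in humanized TCPOBOP, 4.71 ± 1.67 in humanized vehicle, 3.87 ± 1.24 in wild-type TCPOBOP and 14.5 ± 2.65 in wild-type vehicle livers. Its range overlapped that of Cyp7a1, the next above, in humanized TCPOBOP liver and that of Fgfr4 in wild-type vehicle liver. Akr1d1 changed place most: it was the second in wild-type TCPOBOP liver, at 198 ± 24.6 CPM per kilobase, clear of both neighbours, and the fifth in wild-type vehicle liver, at 59.0 ± 10.03, where it overlapped the next gene. In both humanized groups it was the seventh of the 10. The neighbours Cyp7b1, Cyp8b1 and Baat, ranked 2 to 4 in wild-type vehicle liver, overlapped one another.

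Other enzymes of bile acid synthesis were taken from a list of 20 genes, of which 18 were tested. In humanized liver 1 rose and 0 fell with TCPOBOP (2.52% of all genes tested passed there), and in wild-type liver 3 rose and 3 fell (13.1% passed there). These background shares hold for the lists that follow too. The median log2 change of the 18 was 0.35 in humanized and -0.31 in wild-type liver, against 0.02 and -0.02 over all genes tested. Of the 6 wild-type calls 3 were kept in each fit that left out 1 library. They were Por, the reductase that feeds electrons to microsomal P450 enzymes (1.26 ± 0.31, adjusted p = 0.0105), Slc27a2, an acyl-CoA synthetase of very long chain fatty acids (-1.14 ± 0.22, 0.00166), and Cyp46a1, a cholesterol hydroxylase best known from brain (-1.83 ± 0.40, 0.00402). Cyp46a1 was barely detected, at 0.328 CPM in wild-type TCPOBOP and 1.17 CPM in wild-type vehicle livers (27 and 47 counts per group). The other wild-type calls were Cyp39a1 (1.30 ± 0.36), Acnat2 (0.93 ± 0.24) and Sult2a8 (-2.06 ± 0.64), lost in 4, 1 and 6 of those fits. The humanized call was Acnat2 at 1.14 ± 0.25 (adjusted p = 0.0261), lost in 5. Between the strains' effects 5 passed, against 7.46% of all genes tested, and 2 were kept throughout, Slc27a2 (1.64 ± 0.31) and Sult2a8 (3.90 ± 0.90), a sulfotransferase of mouse liver that acts on bile acids.

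Other regulators were taken from a list of 22 genes, of which 18 were tested. With TCPOBOP 0 rose and 0 fell in humanized liver, where DESeq2 called 2, and 0 rose and 4 fell in wild-type liver. The 2 wild-type calls kept in every such fit were Ppara, the fatty acid receptor (-1.21 ± 0.30, adjusted p = 0.0111), and Nr1i3 (-0.94 ± 0.19, adjusted p = 0.00198). Ppargc1a, a coactivator, was at -1.12 ± 0.31 (lost in 2 of those fits) and Fgfr1 at -0.80 ± 0.25 (lost in 10). Ppara had 139, 238, 478 and 394 CPM in humanized TCPOBOP livers, 146, 138, 150.2 and 143 CPM in humanized vehicle livers, 147, 136, 111 and 96.8 CPM in wild-type TCPOBOP livers and 281, 167, 331 and 354 CPM in wild-type vehicle livers. Its TCPOBOP effects differed between the strains by 2.32 ± 0.43 (adjusted p = 0.00262). The receptors Hnf4a, Nr5a2, Nr1h2 and Nr1h3 passed in no comparison. Rxra, another receptor of the list, was lower in humanized than in wild-type liver under vehicle (-0.61). That call was lost in 4 of the 16 fits that left out 1 library. Between the strains, 1 of the 18 was higher and 5 were lower in humanized liver under vehicle, against 16.1% of all genes tested. Under TCPOBOP 5 were higher and 2 lower, against 24.6%. The lower genes include Nr1i2 and Nr1i3 under both treatments, the mouse genes of the 2 receptors named in the humanized strain's label. They stood at -2.85 and -5.50 under vehicle and at -2.69 and -3.89 under TCPOBOP, where they were the only 2 lower. These calls follow from how the strain was defined, so the counts of lower genes are no separate result.

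Among 15 genes of bile acid transport and FXR targets, 13 were tested. In humanized liver 1 rose and 0 fell, and in wild-type liver 3 rose and 3 fell. The humanized call was Slco1a1 at 2.01, lost in 12 of the 16 fits that left out 1 library. The calls kept in each fit without 1 library were all in wild-type liver: the export pumps Abcc4 (3.05 ± 0.38, adjusted p = 2.59e-05) and Abcc3 (1.21 ± 0.24, 0.00198) rose, and Abcg5, part of the sterol exporter of bile (-1.22 ± 0.25, 0.00239), fell. Abcc2 (1.04 ± 0.29), Abcg8 (-1.08 ± 0.28) and the uptake carrier Slco1a1 (-1.84 ± 0.51) also passed in wild-type liver and were lost in 4, 1 and 5 of the fits. The bile salt export pump Abcb11 passed in no comparison. Under vehicle 2 of the 13 were higher and 3 lower in humanized than in wild-type liver, against 16.1% of all genes tested. The bile acid uptake carrier Slc10a1 (-1.43 ± 0.23, adjusted p = 0.00204) and Slco1a1 (-2.60) were lower in every fit without 1 library. Slco1b2 (-1.12) was also lower, and Abcc4 (1.30) and Abcg5 (0.83) were higher, each call lost in 6 of those fits. Under TCPOBOP 2 were higher and 3 lower, against 24.6%.

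**Figure D3:**
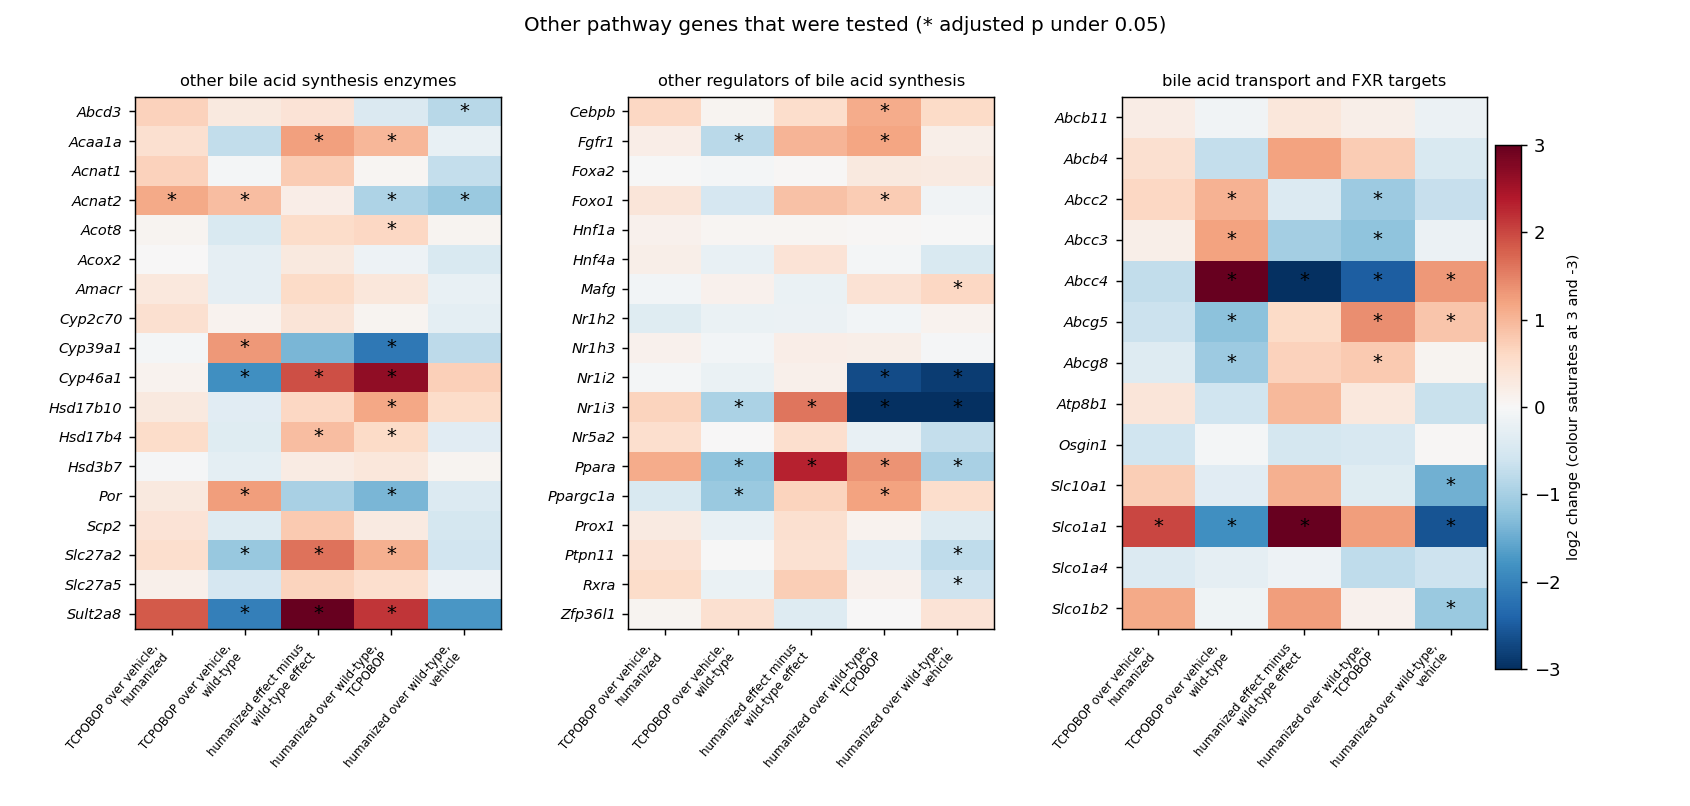
Log2 change of every other pathway gene tested, by list and comparison, with the colour scale running from -3 to 3 and an asterisk for an adjusted p under 0.05. Abcc4 is the strongest rise in the wild-type column of the transport list, at 3.05, and the humanized TCPOBOP column holds 2 asterisks, Acnat2 and Slco1a1. Those 2 calls were lost in 5 and 12 of the 16 fits that left out 1 library.

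Markers of cell types, clock genes and sex-biased genes were read beside these results, and their part in them was not tested. The 8 hepatocyte markers summed to 43348 to 60047 CPM in humanized TCPOBOP, 49604 to 60303 in humanized vehicle, 25846 to 40577 in wild-type TCPOBOP and 57072 to 95816 in wild-type vehicle livers, and 3 of the 8, Alb, Ass1 and Ttr, fell with TCPOBOP in wild-type liver beside the falls of Klb, Cyp7b1 and Cyp8b1. The other 5 did not pass there. The sum mostly follows Alb, which averaged 16881 CPM in wild-type TCPOBOP and 49738 CPM in wild-type vehicle livers. Fewer cells of a type and less RNA per cell cannot be told apart in whole liver. None of the 9 Kupffer, 8 sinusoidal endothelial, 7 stellate or 6 cholangiocyte markers tested passed in either TCPOBOP comparison by edgeR. Under vehicle 7 of 9 Kupffer cell markers were lower in humanized liver (summed 257 to 461 CPM in humanized, against 523 to 1148 CPM in wild-type livers), as were 3 of 8 endothelial, 2 of 7 stellate and 1 of 8 hepatocyte markers, beside the Klb and Nr0b2 differences, and 1 of 6 cholangiocyte markers was higher. Under TCPOBOP 3 of 8 hepatocyte markers were higher in humanized liver, 2 of 8 endothelial and 3 of 7 stellate markers were lower, 1 cholangiocyte marker was higher and 1 lower, and 0 of 9 Kupffer cell markers passed by edgeR, beside the 6 genes called there. No marker was at 0 in any group.

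The clock genes of the humanized vehicle livers stood apart from the other groups. Dbp, a transcription factor of clock output, had 93.2, 20.1, 106 and 79.7 CPM in humanized TCPOBOP livers, against 4.35, 6.29, 3.92 and 3.97 CPM in humanized vehicle livers. In the wild type it had 51.0, 63.9, 34.6 and 35.9 CPM in TCPOBOP livers, against 81.3, 44.4, 11.6 and 75.2 CPM in vehicle livers. Arntl, which encodes the core clock factor BMAL1, had 6.2, 16.2, 2.66 and 7.82 CPM in humanized TCPOBOP livers, against 24.7, 31.0, 26.6 and 30.7 CPM in humanized vehicle livers. The humanized groups overlapped for neither gene. Of 19 clock genes, 7 rose and 2 fell with TCPOBOP in humanized liver, and 0 rose and 1 fell in wild-type liver. Without 1 library each, the calls kept in humanized liver were 3: Dbp (4.01 ± 0.55, adjusted p = 0.00132), Bhlhe41 (3.47 ± 0.61, 0.00671) and Cry1 (-1.20 ± 0.21, 0.00567). Under vehicle 4 were higher and 6 lower in humanized than in wild-type liver, against 16.1% of all genes tested, and 5 of those calls were kept in such fits. The same humanized vehicle livers enter the TCPOBOP estimates of Cyp7a1, Cyp7b1 and Klb in humanized liver and the vehicle differences of Klb and Nr0b2. Replicate 3 of the humanized TCPOBOP group had the highest Cyp7a1, Klb and Dbp and the lowest Nr0b2 of its group. It also had the highest Cyp2b10, 201 CPM against 63.3 to 79.7 CPM in the rest. Replicate 1, with 93.2 CPM of Dbp, had the lowest Cyp7a1 and Klb and the highest Nr0b2 of the group. Whether these genes follow Dbp was not tested.

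Of 14 male-biased liver genes 2 rose and 0 fell with TCPOBOP in humanized liver, and 1 rose and 5 fell in wild-type liver. The humanized calls, Slco1a1 and Hsd3b5, were lost in 12 and 1 of the 16 fits that left out 1 library. Slco1a1 is also counted in the transport list. Of the 6 wild-type calls 4 were kept in all such fits. All 16 livers had at least 204 counts of the Y-linked gene Ddx3y and at most 6 of Xist. The strains' effects differed for 5, each kept in all fits without 1 library. Hsd3b5, a male-specific steroid enzyme of mouse liver, had 84.2, 194, 104 and 151 CPM in humanized TCPOBOP livers, against 3.84, 27.9, 17.1 and 6.89 CPM in humanized vehicle livers. It had 50.1, 14.9, 24.4 and 15.3 CPM in wild-type TCPOBOP livers, against 99.9, 36.9, 207 and 234 CPM in wild-type vehicle livers. Cyp7b1, itself known as higher in male than in female mouse liver, had the same order of group means as Hsd3b5 under TCPOBOP and vehicle in each strain. Its humanized difference did not pass (adjusted p = 0.232). Not all of the list had that order. In wild-type liver Cyp4a12a rose (1.11), and Cyp2d9, Elovl3, C6 and Gstp1 also had higher means with TCPOBOP. In humanized liver Serpina1e and Cyp4a12b had lower means with TCPOBOP. Whether Cyp7b1 follows these genes was not tested. Of 14 female-biased genes 8 were tested. With TCPOBOP 0 rose and 1 fell in humanized liver, and 3 rose and 2 fell in wild-type liver. Of the 3 that rose, Cyp3a44 and Sult3a1 had 0 counts in both humanized groups. They passed the filter through wild-type livers only, and a change in humanized liver could not show. The humanized fall, Abcd2, was lost in 11 of the 16 fits that left out 1 library. Of the 5 wild-type calls 4 were kept in all of them.

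**Figure D4:**
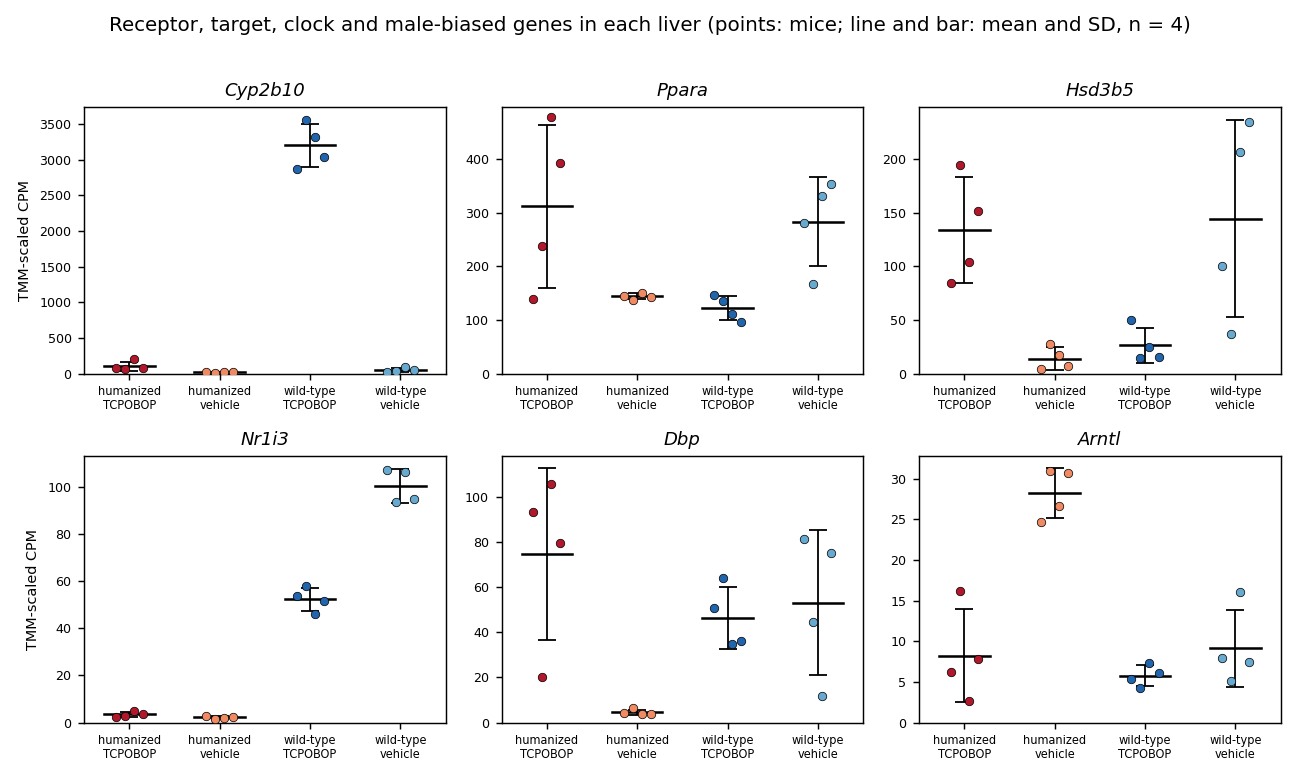
Level in every liver, in TMM-scaled CPM, of the CAR target Cyp2b10, Ppara, the male-biased gene Hsd3b5, the mouse CAR gene Nr1i3 and the clock genes Dbp and Arntl (points are mice, lines and bars are mean and SD, n = 4). Arntl is at 24.7 CPM or more in the 4 humanized vehicle livers and at 16.2 CPM or less in every other liver.

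The genes whose levels ran most alike across the 16 livers were ranked by Pearson correlation of log2 levels over 9431 genes, as a description that follows the group means. Akr1d1 was most like Tmpo (r = 0.975), Pola1 (0.974) and Slc23a2 (0.97). Klb was most like Dhrs1 (0.955), Tbc1d16 (0.948) and Parva (0.935), and Cyp7b1 was most like Hao1 (0.914), Cyp4v3 (0.905) and Slc25a20 (0.897). Nr0b2 was most like Gabarap (0.944), Rtp3 (0.943) and Recql5 (0.942). Cyp7a1 was most like Gimap6 (0.884), Adgrg3 (0.849) and Lama4 (0.846), and Cyp8b1 like Ranbp10 (0.898), Neb (0.862) and Polg2 (0.86). The best values for the remaining genes were 0.935 for Fgfr4 with Coq8a, 0.931 for Baat with Slc17a3, 0.893 for Nr1h4 with Decr1 and 0.803 for Cyp27a1 with Eppk1. The livers share strain, treatment and sequencing depth by group.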

How the data were processed

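The authors deposited whole-number counts for 40458 transcript accessions in 16 libraries, with poly(A) selection and a NEBNext kit per the labels' protocols. STAR, DESeq2 and mm10 are named per the submitters' processing notes. The sources used here do not name versions, the counting program, the annotation or strandedness. Of counts of 20 or more, 74.9% were even, against 75% for halved counts, so the values may be halved. Each gene was given the accession with the highest mean count: 40219 accessions were named by RefSeq, 125 by GENCODE, and 114 (0.227 to 0.582% of counts) stayed unnamed. Overlapping transcripts of Akr1d1, Baat and Cyp7b1 could share reads. Counts were tested with edgeR 4.0.16 (limma 3.58.1, R 4.3.3): TMM, filterByExpr, 1 mean per group, quasi-likelihood F tests with 12 residual degrees of freedom, Benjamini-Hochberg over 12913 genes. The common biological coefficient of variation was 0.259. Simulated data were used to test the steps. Alternatives were DESeq2 1.42.0, RLE factors, no TMM, no filter, the mean of a gene's accessions, thinning, fits of only the compared groups, a replicate block and leaving out each library. P-values measure the spread between mice as labelled. The genes and lists were chosen with earlier results of these data known. Named are all 10 genes, Nr1i3, Nr1i2 and Cyp2b10 as checks, called list genes by smallest p, and the 3 most alike genes.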

Additional observations from a re-analysis of the deposited data

Results flagged for a closer look

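Each of the 10 genes was checked in each of the 4 groups for a library far from the rest. The measure was Dixon's ratio of the gap to the range. Chance alone flags about 1 in 20 such checks, so some flags would come by chance over all of them. In all, 3 libraries were flagged. Cyp7a1 in replicate 3 of the humanized TCPOBOP group stood at 102.23 CPM (ratio 0.836), above the rest of that group. Nr0b2 in replicate 4 of the humanized vehicle group stood at 73.883 CPM (ratio 0.914), below the rest. Cyp27a1 in replicate 2 of the wild-type vehicle group stood at 987.96 CPM (ratio 0.83), above the rest.

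TCPOBOP effects that differed between the strains by the interaction test (log2, humanized effect minus wild-type effect) were Cyp7b1 at 2.34, Akr1d1 at -1.48 and Klb at 2.74. Among other synthesis enzymes they were Acaa1a at 1.22, Cyp46a1 at 1.94, Hsd17b4 at 0.93, Slc27a2 at 1.64 and Sult2a8 at 3.90, and among regulators Nr1i3 at 1.60 and Ppara at 2.32. Of these, the calls of Acaa1a, Cyp46a1 and Hsd17b4 were lost in 9, 6 and 11 of the 16 fits that left out 1 library. Transport genes were Abcc4 at -3.78 and Slco1a1 at 3.86. Clock genes were Bhlhe41 at 3.81, Dbp at 4.20, Nr1d1 at 1.21, Per3 at 2.39 and Tef at 1.61, and the calls of Nr1d1 and Per3 were lost in 3 and 4 of those fits. Sex-biased genes were Cyp2u1 at 2.53, Hsd3b5 at 5.73, Susd4 at 4.25, Ugt2b38 at 4.61 and Prom1 at -4.82.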

How the results depend on the processing

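Over the settings other than leaving out 1 library, 399 of the values of the 10 genes kept their direction and side of the threshold, 5 came to pass it, 6 no longer passed, and 30 changed sign, none of them past the threshold before or after. The cause of each change was not tested. The sign changes were in values near 0. In wild-type TCPOBOP they were Cyp7a1 (-0.01 with the mean of accessions, and 0.00 with DESeq2, RLE, thinning or without both libraries that stood apart, an alternative chosen after seeing the data) and Nr1h4 (0.00 without TMM). Without TMM, Cyp27a1 and Baat stood at -0.11 and -0.02 for TCPOBOP in humanized liver, Cyp27a1, Fgfr4 and Nr0b2 at -0.11, -0.20 and -0.04 in the interaction, and Cyp27a1 at -0.16 between strains under TCPOBOP (-0.01 with no filter). With the replicate block Cyp27a1 stood at -0.01 for TCPOBOP in humanized liver. Between strains under vehicle, Baat ran from -0.03 to 0.00 (-0.03 with no filter, -0.02 with DESeq2 or RLE, -0.01 when thinned or with those groups only) and Nr1h4 at -0.03 (DESeq2, RLE, no filter), -0.02 (thinned, mean of accessions) and -0.01 (those groups only). Without both libraries, Baat, Nr1h4 and Cyp27a1 stood there at -0.23, -0.19 and 0.01, and Fgfr4 in the interaction at -0.06.

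Leaving out 1 library at a time, ranges that crossed 0 were, for TCPOBOP in humanized liver, Cyp27a1 from -0.04 to 0.14 and Nr0b2 from -0.27 to 0.17, and in wild-type liver Cyp7a1 from -0.10 to 0.10, Cyp27a1 from -0.23 to 0.01, Baat from -0.41 to 0.11 and Nr1h4 from -0.27 to 0.05. For the interaction Fgfr4 ran from -0.14 to 0.21. Between strains, Cyp27a1 ran from -0.05 to 0.16 under TCPOBOP, and under vehicle Cyp7a1 from -0.06 to 0.29, Cyp27a1 from -0.16 to 0.00, Baat from -0.24 to 0.29 and Nr1h4 from -0.20 to 0.13.

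Without TMM the median log2 value of all genes moved to -0.11 for TCPOBOP in humanized liver, -0.22 for the interaction and -0.17 between strains under TCPOBOP, against 0.02, 0.00 and 0.01 with it. Among the 10 genes, humanized TCPOBOP calls numbered 1 with DESeq2 and 2 without both libraries: Cyp7a1 at -1.06 and Klb at 1.14. Calls between strains under TCPOBOP numbered 3 when only those groups were fitted, and Klb failed there without TMM (1.01, adjusted p = 0.0653). Leaving out 1 library at a time, calls ranged from 0 to 1 for TCPOBOP in humanized liver, 1 to 3 for the strains under vehicle and 3 to 6 under TCPOBOP. Over all genes, such fits gave 74 to 960 calls for TCPOBOP in humanized liver, 1068 to 2190 in wild-type liver, 575 to 1782 for the interaction, 621 to 3425 for the strains under vehicle and 1963 to 4163 under TCPOBOP. TCPOBOP in humanized liver gave 325 calls on all libraries, 765 with DESeq2, 182 with its own groups only and 2137 without both libraries. DESeq2 gave 1481 interaction calls. Without both libraries, the interaction gave 3140, wild-type TCPOBOP 3046 and the strains under vehicle 4505.

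Replicate numbers were not taken to pair the mice, since the labels do not say so and not every same-number correlation was over 0.1: it ran from -0.2438 to 0.0724 between the humanized groups and from 0.0998 to 0.5814 between the wild-type groups, where 3 of 4 were over 0.1 and 4 of 8 livers correlated best with their own number. With the replicate block, TCPOBOP in humanized liver gave 209 calls, Fgfr4 passed in wild-type liver (-0.48, adjusted p = 0.0339) and Klb failed between strains under TCPOBOP (1.05, adjusted p = 0.0601). Klb had the fewest counts of the 10 genes, 66 in 1 library.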
